A study of Mus musculus with 23 samples.

Results

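The libraries described here are 8 of 23 bulk RNA-seq libraries made from mouse retinal microglia: the 4 labelled Spp1 KO with optic nerve crush (KO ONC) and the 4 labelled Spp1 KO with raised eye pressure (KO IOP). They were chosen by their labels, and all 15503 genes of 35825 in the table that reached a normalized count of 10 in at least 3 of the 8 libraries were compared, on log2(normalized count + 1). Optic nerve crush is an acute injury that severs the ganglion cell axons at 1 moment, and its libraries were taken after 7 days. Raised intraocular pressure, produced by microbeads injected into the anterior chamber, is a chronic injury, and its libraries were taken after 4 weeks. Injury, time since injury and the way it was inflicted therefore differ together. All 8 libraries carry, per the study's methods, homozygous loss of the Spp1 gene in every tissue and the CX3CR1-GFP reporter, by which the microglia were sorted. Retinas of several mice were pooled before the sort, so a library is a pool. A legend of the study counts its n for such expression values in mice, and how many mice each pool held and whether the pools were independent is not given in the sources used here. The 4 naive KO libraries (uninjured) are shown as levels with no test. There were 3 Spp1 wild-type libraries with the same reporter after crush (WT ONC) and 4 with raised pressure (WT IOP). They were used to ask whether a difference depends on genotype. The main fit held all 23 libraries, including 4 uninjured wild-type ones, which shared an estimate of the spread. The p-values of that fit therefore also rest on libraries outside the 8. Ages are not given in the sources used here.

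Microglia are the resident macrophages of the retina. After injury to ganglion cells they can lower their surveillance genes, take up debris into lysosomes, and can switch on a set of genes for lipid handling and phagocytosis often called the disease-associated microglia (DAM) program. Type I interferon signalling acts through a complex that holds STAT2 and IRF9 and binds the interferon-stimulated response element (ISRE) upstream of their target genes. Sterol synthesis and uptake genes are driven by SREBP2 when the cell's sterol is low, and loaded sterol is exported by ABC transporters. Spp1 (osteopontin) is a secreted phosphoprotein that binds integrins and CD44. By staining, the study found the protein in alpha ganglion cells of the retina and did not detect it in retinal microglia. Which cells gave the Spp1 counts of the sorted libraries below was not tested.

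In these libraries 441 genes (2.84% of those tested) separated the 2 injuries. Of these 250 were higher after crush (1.61% of those tested) and 191 were higher with raised pressure (1.23%). The genes called higher after crush included 24 of 36 of the type I interferon response, 13 of 30 of the G2/M phase of the cell cycle, 15 of 30 of the DAM program, 8 of 19 of MHC class I presentation, 9 of 35 of lysosomes and 5 of 20 chemokines. Those called lower included 12 of 22 of cholesterol synthesis and uptake. A gene was called when its Benjamini-Hochberg adjusted p in limma was under 0.05 and its log2 difference was over 0.58 in size. The libraries of 410 of the 441 called genes did not overlap between the injuries, against 2185 (14.1%) of all genes tested. The median difference over all tested genes was 0.03, and 52.7% of them had higher means after crush. In limma 2490 of the 15503 tested genes had an unadjusted p under 0.05.

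The number of calls moved with single libraries. It was 131 without KO ONC 2, 164 without KO ONC 3, and 249, 257, 277 and 268 without KO IOP 1, KO IOP 2, KO IOP 4 and KO ONC 1. With the reads recovered from the values, which leave out KO IOP 2 and KO IOP 4, edgeR called 52 genes and DESeq2 599, and limma on the same libraries called 134. The median differences of the lists just named kept their sign in each of the 8 fits that left out 1 library.

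Several gene levels set the libraries apart in ways the injury labels do not give, and they stand beside every result. Ddx3y, an RNA helicase on the Y chromosome that marks male cells, read 1656, 1456, 1717 and 1369 normalized counts in the KO ONC libraries and 3.05, 1, 0 and 0 in the KO IOP libraries. So every KO ONC pool held male cells and the KO IOP pools held none or almost none, and sex and injury cannot be told apart within the KO libraries. In the WT libraries the order was the other way: Ddx3y was between 633 and 2274 in the 4 WT IOP libraries, 1797 in WT ONC 1, and 9.21 and 3.51 in WT ONC 2 and WT ONC 3. With the mean of the Y chromosome genes as a term in the fit, 29 genes were called, 28 of them among the 441. On the log2 scale that mean was 2.84 to 4.02 in KO IOP and 9.28 to 10.25 in KO ONC. The coefficient of the term therefore rests largely on other groups, where single libraries differed, as KO naive 3 did at 4.74. KO naive 3 also differed in makeup, as given below. So this fit cannot separate sex from injury, and the values given below with the Y chromosome term are not corrected for sex.

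Spp1 itself checks the genotype, and 5 of the 8 libraries held clear Spp1 reads. It read 4750, 6811, 15 and 6226 normalized counts in KO ONC 1 to 4 and 25.5, 811, 9.28 and 761 in KO IOP 1 to 4, against 14557 to 22906 in WT ONC and 1343 to 2772 in WT IOP. KO ONC 3, KO IOP 1 and KO IOP 3 were thus at 25.5 or below, and 3 of the KO ONC libraries exceeded every WT IOP library. The injuries overlapped in Spp1 (difference 3.56 ± 1.58 SE, adjusted p = 0.262 in limma; exact two-sided permutation p = 0.2, the smallest possible with 4 against 4 being 0.0286). A count over a gene cannot show whether a transcript is functional, and the names KO ONC and KO IOP below mean the libraries so labelled. With the KO libraries above 100 normalized counts of Spp1 left out, 1 KO ONC and 2 KO IOP libraries remain and 3 genes were called, so for that setting only medians are given.

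Cx3cr1, the fractalkine receptor and the gene that carries the GFP reporter, had the lowest adjusted p of all tested genes. It read 46130, 33812, 12869 and 22396 normalized counts in KO ONC 1 to 4 and 1079, 1233, 1067 and 952 in KO IOP 1 to 4. The groups were far apart, and the KO IOP libraries also lay below the naive KO libraries (9417 to 26283) and below every WT library with an injury (26836 to 54810). The difference was 4.58 ± 0.35 SE (log2, adjusted p = 1.5e-07 in limma), and it differed from that in WT, which was 0.03 (interaction 4.55 ± 0.51 SE, adjusted p = 0.000187). The reporter allele replaces coding sequence of Cx3cr1 (chr9:119901616-120069879, minus strand, GRCm38), and the study's methods start the cross from mice heterozygous for it but do not state the reporter genotype of the mice in each library, so allele number and expression cannot be told apart here. The other 24 homeostatic microglia genes did not as a set share this rise. Besides Cx3cr1, 1 of them, Sparc, was called. Of all 25, 13 had higher and 12 lower means after crush, and the median of the list was 0.02. Between the injuries 12 of the 25 did not overlap, against 14.1% of all genes tested. With the mean of the rod genes as a term in the fit, 8 of the 25 were called, and 578 of all genes. The median of the list in that fit was -0.25. P2ry12 and Tmem119, which define resting microglia, read 30394 to 39741 and 38549 to 46726 normalized counts after crush, and 40150 to 59142 and 54900 to 71201 with raised pressure. Neither overlapped between the injuries, but neither passed the test (adjusted p = 0.501 and 0.392 in limma).

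**Figure D1:**
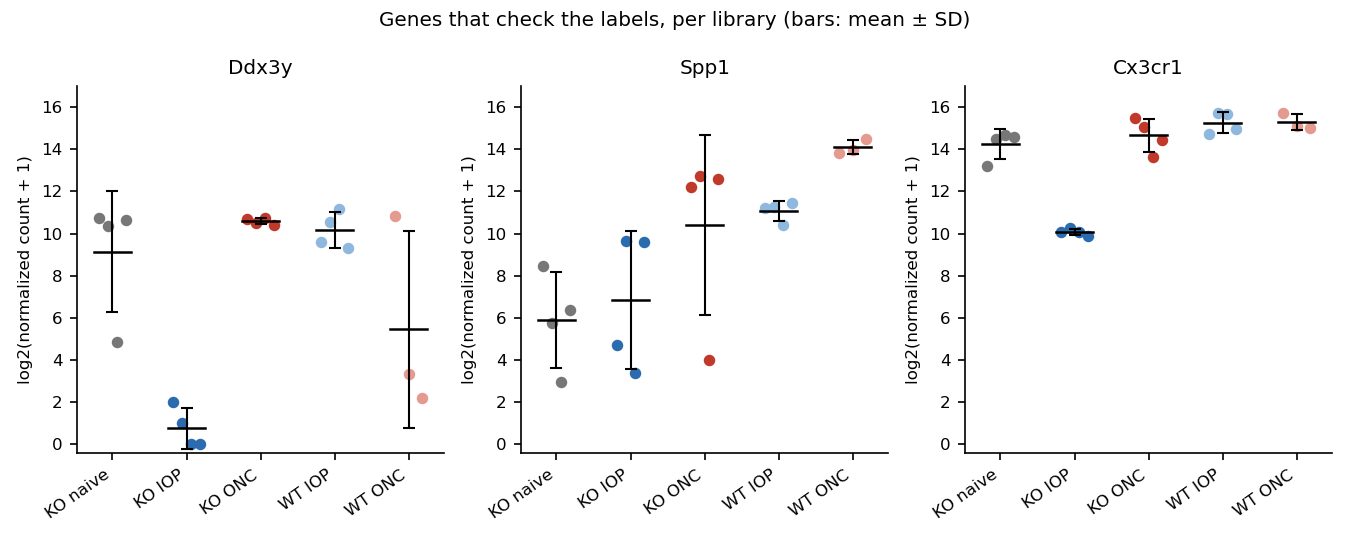
Log2(normalized count + 1) of Ddx3y, Spp1 and Cx3cr1 in each library of 5 groups, with black bars for the mean ± SD. All 4 KO IOP libraries lie at the bottom for Ddx3y (0 to 3.05 normalized counts) and near 1000 for Cx3cr1, and Spp1 is split within both KO injury groups, at 15 in KO ONC 3 and at 4750 to 6811 in the other KO ONC libraries.

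The sort gave microglia with retinal RNA. The 11 pan-myeloid genes took 3.52% to 4.07% of all counts after crush and 3.19% to 3.6% with raised pressure, and none of them was called. Rod photoreceptor genes took 0.786% to 1.13% and 0.956% to 1.67%, with none of 16 called. The monocyte list took at most 0.0275%, and of its 12 genes limma and edgeR called 0 and DESeq2 1. Among them 8 had lower and 4 higher means after crush. Ccr2, a member, read 1217, 2177, 117 and 2145 normalized counts in KO IOP 1 to 4. It read 139, 243, 138 and 268 in KO ONC 1 to 4 (difference -2.26, limma adjusted p = 0.116). The normalized counts of a library summed to between 2.6e+07 and 3.15e+07, and the correlation of log2 values within a group was 0.964 to 0.979.

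The type I interferon response had the most called members of the 29 program lists. All 36 genes of the list had higher means after crush, 24 were called and 33 had an unadjusted p under 0.05, with a median difference of 1.42 and a range of 0.55 to 2.32. The upstream sequences of 3 called members and 2 called MHC class I genes are shown because each holds the letters of the ISRE. They come from RefSeq (GRCm38.p6), run 5′ to 3′ on the gene's strand, and the capitals mark the ISRE searched for, GAAA, any 2 bases and GAAA, or its reverse complement. Rsad2 is at chr12:26456508-26456627 (minus strand), Isg15 at chr4:156200832-156200951 (minus), Ifit3 at chr19:34583318-34583437 (plus), B2m at chr2:122147493-122147612 (plus) and H2-T22 at chr17:36042869-36042988 (minus).
Rsad2: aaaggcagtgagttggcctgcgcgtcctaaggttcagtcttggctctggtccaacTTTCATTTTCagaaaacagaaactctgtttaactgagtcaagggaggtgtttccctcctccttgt
Isg15: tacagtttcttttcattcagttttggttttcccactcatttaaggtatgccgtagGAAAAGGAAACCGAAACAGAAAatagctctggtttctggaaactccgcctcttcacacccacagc
Ifit3: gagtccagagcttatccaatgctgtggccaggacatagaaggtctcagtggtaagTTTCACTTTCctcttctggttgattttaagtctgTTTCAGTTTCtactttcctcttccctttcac
B2m: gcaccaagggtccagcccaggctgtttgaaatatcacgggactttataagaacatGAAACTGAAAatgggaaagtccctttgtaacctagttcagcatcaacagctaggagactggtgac
H2-T22: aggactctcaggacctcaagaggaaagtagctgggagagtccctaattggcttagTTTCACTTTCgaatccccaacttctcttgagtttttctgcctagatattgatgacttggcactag

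Counted on both strands over the 250 bases before the start, these letters were in 8 of the 16 called interferon genes that have an upstream sequence in the table (50%) and in 3 of the 8 called MHC class I genes (37.5%). They were in 3.36% of the 11561 tested genes with such a sequence, in 13.1% of those called higher after crush and in 4.55% of those called lower. Copies may overlap, as in Isg15. A match is a run of letters and not a bound site.

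Irf7, the transcription factor that amplifies interferon production, read 12196, 17993, 14069 and 8438 normalized counts after crush and 2382, 3266, 2558 and 2705 with raised pressure. All 4 crush libraries lay above all 4 pressure libraries, and the pressure libraries lay above the naive ones (829 to 1889). The difference was 2.23 ± 0.27 SE (limma adjusted p = 0.000117), and it was called in all 8 fits that left out 1 of these libraries. Rsad2, which encodes the antiviral enzyme viperin, read 1322, 2882, 2266 and 1044 after crush and 364, 420, 346 and 354 with raised pressure, where it was within the naive range of 163 to 485 (difference 2.22 ± 0.39 SE, adjusted p = 0.00399). Ifi27l2a, an interferon-induced gene of the mitochondrial membrane, read 10996 to 14635 after crush, 2311 to 2621 with raised pressure and 420 to 1733 in naive libraries (2.32 ± 0.44 SE, adjusted p = 0.00636). Mx1, a dynamin-like antiviral GTPase, was called (2.21 ± 0.48 SE, adjusted p = 0.0144), but its groups overlapped: the lowest crush library read 438 and the highest pressure library 439.

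In 35 of the 36 interferon genes the KO means rose in the order naive, raised pressure, crush, against 4126 of all 15503 genes tested. The number of members called ranged from 10, without KO ONC 2, to 21 over the fits that left out 1 library, while the median stayed between 1.27 and 1.52. edgeR called 1 member and DESeq2 22. With the Y chromosome term the median was 1.44 and 3 members were called. It was 1.61 without the libraries with Spp1 above 100.

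MHC class I genes, which load and present peptides to CD8 T cells, had higher means after crush in all 19 members, and 8 were called (median 0.99). The calls ranged from 2, without KO ONC 2, to 8 over the fits that left out 1 library, and edgeR called 0 and DESeq2 6. H2-Q7, a non-classical class I heavy chain, read 7321, 10819, 7717 and 6216 after crush and 1665, 1082, 1721 and 1151 with raised pressure (2.51 ± 0.35 SE, adjusted p = 0.000637). H2-Q6 differed by 2.20 ± 0.36 SE and H2-T22 by 1.5 ± 0.32 SE. Reads of H2-Q6, H2-Q7 and other class I genes can be shared between near-identical copies, so their separate values are uncertain. B2m, the common light chain, read 94182 to 183765 after crush and 43970 to 57915 with raised pressure (1.37 ± 0.31 SE, adjusted p = 0.0181). Psme1, a subunit of the interferon-inducible proteasome activator, was the member of the proteasome list called (1.10 ± 0.20 SE, adjusted p = 0.00473, 1 of 33). None of the 11 MHC class II genes was called in limma, with 1 at an unadjusted p under 0.05 and 0 called by edgeR and by DESeq2. H2-Oa had their lowest adjusted p (0.65 ± 0.28 SE, 0.256).

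Genes of mitosis had the largest median difference of the 29 program lists. All 30 G2/M genes had higher means after crush, 13 were called and 28 had an unadjusted p under 0.05, with a median of 2.03. Birc5 (survivin), a subunit of the chromosomal passenger complex, read 502, 512, 452 and 434 normalized counts after crush and 181, 100, 11.3 and 89.9 with raised pressure (2.82 ± 0.63 SE, adjusted p = 0.0176). The crush libraries were close together, and the pressure libraries were spread widely, with KO IOP 3 the lowest. Cenpa, the centromeric histone, read 672, 799, 877 and 645 after crush and 286, 155, 107 and 107 with raised pressure (2.30 ± 0.43 SE, adjusted p = 0.00597). Ube2c, which ubiquitinates cyclins at the end of mitosis, and Nusap1, a spindle protein, differed by 2.21 ± 0.53 SE and 2.20 ± 0.53 SE. The naive KO libraries lay at the level of raised pressure: over the list the median of raised pressure minus naive was 0.05, and that of crush minus naive was 2.23.

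None of 31 S phase genes was called in limma, although 28 had higher means after crush and 9 had an unadjusted p under 0.05 (median 0.34); edgeR and DESeq2 also called 0. The G2/M calls numbered from 3, without KO ONC 3, to 15 over the fits that left out 1 library, and 0 with the Y chromosome term, where the median was 1.57. edgeR called 1 G2/M gene and DESeq2 10. The sequence TTTGAA, an element found upstream of mitotic genes, was in 3 of 11 called G2/M genes with an upstream sequence (27.3%) and in 13.3% of tested genes, counted on both strands over 250 bases. Cdkn1a, the p21 inhibitor of cyclin-dependent kinases, was also higher after crush, at 1082 to 1663 against 235 to 590 (1.53 ± 0.28 SE, adjusted p = 0.00449).

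Of 30 DAM genes 26 had higher and 4 lower means after crush, with a range of -1.54 to 3.56. Those called were 15, all higher after crush (median of the list 0.93). Some called members, as B2m, Ccl6, Axl, Lpl and Csf1, are counted in other lists too. Cst7 (cystatin F), an inhibitor of lysosomal cathepsins, read 6695, 9267, 6877 and 6201 normalized counts after crush and 766, 1124, 1211 and 1072 with raised pressure. The naive libraries were lower again, at 149 to 291, so the 3 KO groups did not overlap in Cst7. Its difference of 2.80 ± 0.27 SE (adjusted p = 5.81e-06) was called in all 8 fits that left out 1 library. Lpl, lipoprotein lipase, read 9404, 11593, 10908 and 8201 after crush, 2617, 2580, 1511 and 2344 with raised pressure and 1328 to 1627 in naive libraries (2.17 ± 0.21 SE, adjusted p = 5.81e-06). Itgax (CD11c), an integrin of activated microglia, read 5051 to 7331 and 625 to 1686 (2.70 ± 0.45 SE, adjusted p = 0.00292). Csf1, the ligand of the receptor on which microglia depend, read 3518, 3446, 3639 and 3271 after crush and 232, 636, 432 and 455 with raised pressure (3.07 ± 0.45 SE, adjusted p = 0.00091).

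In 25 of the 30 DAM genes the KO means rose from naive through raised pressure to crush, against 4126 of all 15503 genes tested. The calls ranged from 6, without KO ONC 2, to 15, and the median from 0.86 to 1.03. edgeR called 3 and DESeq2 12. With the Y chromosome term the median was 1.06 and 4 were called, and without the libraries with Spp1 above 100 it was 0.88. Spp1 is itself a member of the list and was not called.

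Lysosomal genes, of which some are also DAM genes, had higher means after crush in 34 of 35 members and were called in 9 (median 0.55). Ctsd, the aspartic protease cathepsin D, read 1131715 to 1435597 normalized counts after crush and 389174 to 563267 with raised pressure (1.51 ± 0.33 SE, adjusted p = 0.014). Ctsb, a cysteine cathepsin, differed by 1.41 ± 0.25 SE (adjusted p = 0.00399), Grn, the precursor of the granulins, by 1.42 ± 0.32 SE, and Gla, alpha-galactosidase, by 1.17 ± 0.31 SE. The calls ranged from 2, without KO ONC 2, to 8 over the fits that left out 1 library, and edgeR called 0 and DESeq2 7. In 34 of the 35 the KO means were ordered naive, raised pressure, crush, against 4126 of all 15503 genes tested. Of the V-ATPase, which acidifies the lysosome, 1 of 17 subunits was called (Atp6v1d, 0.58 ± 0.15 SE).

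The autophagy genes showed little of this. Of 36 macroautophagy genes 1 was called, Ulk2, a kinase that starts autophagosome formation (0.95 ± 0.25 SE, adjusted p = 0.0424). Of the 19 selective autophagy receptors, which tether cargo to the autophagosome, none was called in limma, and edgeR and DESeq2 called 0. Against 2490 of the 15503 genes tested, 3 of these receptors had an unadjusted p under 0.05 in limma. Tex264, a receptor for the endoplasmic reticulum, had their lowest adjusted p (0.39 ± 0.16 SE, 0.213). Sqstm1, Optn, Htt and Wdfy3, which are receptors or scaffolds for protein aggregates, differed by 0.07, 0.31, 0.49 and 0.16 with limma adjusted p of 0.855, 0.852, 0.533 and 0.796. Of 34 phagocytosis and efferocytosis genes 1 was called, Axl, a receptor for phosphatidylserine-bound ligands (1.38 ± 0.32 SE, adjusted p = 0.0237). Axl was called in 2 of the 8 fits that left out 1 library. Of the 34 genes 18 had higher and 16 lower means after crush, with differences from -3.01 to 1.38. In limma 14 of them had an unadjusted p under 0.05. Between the injuries 14 did not overlap, against 14.1% of all genes tested.

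Chemokines were called in 5 of 20 members, all higher after crush, while 4 of the others had lower means. Ccl4, a chemokine of activated macrophages, read 1793, 3667, 2581 and 2038 normalized counts and 308, 684, 1353 and 611 (1.91 ± 0.41 SE, adjusted p = 0.0136). Ccl3 and Ccl5 differed by 1.69 ± 0.33 SE and 1.84 ± 0.37 SE, and Ccl6 by 1.57 ± 0.38 SE. The calls ranged from 1, without KO ONC 2, to 6 over the fits that left out 1 library, and edgeR called 0 and DESeq2 5. With the Y chromosome term 2 MHC class I genes, 0 lysosomal genes and 0 chemokines were called, with medians of 0.92, 0.74 and 0.89. Among cytokines and inflammasome genes 1 of 26 was called, Tnfsf9, the ligand of 4-1BB, and it was lower after crush (34.7 to 74.0 against 108 to 153 normalized counts, -1.45 ± 0.36 SE, adjusted p = 0.0299).

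Complement moved in both directions. Cfb (factor B), the protease of the alternative pathway, read 3272, 5803, 4575 and 2995 after crush and 272, 372, 144 and 340 with raised pressure, above the naive 33.8 to 102 (3.91 ± 0.41 SE, adjusted p = 1.78e-05). Cfp (properdin), which stabilizes the same pathway's convertase, was lower after crush (-1.70 ± 0.41 SE, adjusted p = 0.0267), with an overlap between the 1803 of KO ONC 1 and the 1758 of KO IOP 3. Those were the 2 calls among 15 complement genes, and the median was 0.03. Without KO IOP 1, 1 complement gene was called.

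Other called genes higher after crush were of signalling and the matrix. Plaur, the urokinase receptor, read 1048 to 1403 against 268 to 385 (1.95 ± 0.28 SE, adjusted p = 0.000729), and Mmp2, gelatinase A, 2927 to 4847 against 965 to 1226 (1.74 ± 0.31 SE, adjusted p = 0.00436). With Timp2 (0.84 ± 0.23 SE) and Serpine2 (0.82 ± 0.22 SE) they were the 4 called of 23 extracellular proteases and inhibitors. Atf3, a stress-induced transcription factor, differed by 1.18 ± 0.24 SE (adjusted p = 0.00967) and Egr2, a zinc finger factor, by 1.87 ± 0.46 SE (adjusted p = 0.0287), the 2 called of 19 immediate early genes. Without KO ONC 2 no immediate early gene was called, and without KO IOP 1 the calls among proteases and inhibitors were 2. Ftl1, ferritin light chain, was the 1 called of 22 iron and antioxidant genes (0.98 ± 0.26 SE, adjusted p = 0.0449). It was called in 0 of the 8 fits that left out 1 library. Among other genes named in this report, Timp2, Serpine2, Gla and Eif2s3y were called in 1 of these 8 fits. Sparc, Ccl6, Cfp, Egr2, Nusap1, Tnfsf9, Ncapg, Mmp16, Adgrg6 and Rasl11b were called in 2.

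Cholesterol synthesis and uptake ran the other way. Of 22 genes 21 had lower means after crush, 12 were called, all lower, and the median was -1.05. Sqle, squalene epoxidase (chr15:59315077-59331192, plus strand, GRCm38), read 1283, 963, 931 and 1028 normalized counts after crush and 3268, 3123, 2305 and 2707 with raised pressure, and the naive libraries, at 2269 to 2947, were at the pressure level (-1.44 ± 0.24 SE, adjusted p = 0.0025). Idi1, which isomerizes isopentenyl diphosphate, read 1390, 1435, 1215 and 854 after crush and 3053, 3444, 2142 and 3132 with raised pressure. Its libraries did not overlap between the injuries, and it differed by -1.27 ± 0.18 SE (adjusted p = 0.000729).

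All 22 sterol genes had lower means after crush than in the naive KO libraries (median of crush minus naive -0.87), and 15 of 22 had higher means with raised pressure than in naive libraries (median 0.16). Between 12 and 14 members were called over the 8 fits that left out 1 library, and the median ran from -1.12 to -0.93. With the Y chromosome term the median was -0.83 and 4 were called, without the libraries with Spp1 above 100 the median was -1.06, and edgeR called 5 and DESeq2 12. The letters TCAC, any base and CCAC, a form of the sterol response element counted on both strands, were found upstream of 1 of the 6 called members with a sequence in the table, Hmgcs1, and of 1.18% of tested genes. Hmgcs1 encodes the synthase that starts the pathway, and its upstream stretch at chr13:119690159-119690277 (plus strand, RefSeq, GRCm38.p6) is shown with the element in capitals.
Hmgcs1: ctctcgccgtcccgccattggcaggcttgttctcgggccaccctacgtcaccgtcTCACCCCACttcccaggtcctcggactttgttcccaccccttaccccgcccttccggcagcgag

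Among 22 genes of cholesterol efflux and lipid storage 4 were called, Fasn and Scd2 lower and Lpl and Abcg1 higher after crush, and the same number was called in each fit that left out 1 library. Fasn, fatty acid synthase, read 1639, 1430, 2094 and 2163 after crush and 4692, 4737, 3416 and 3775 with raised pressure (-1.19 ± 0.17 SE, adjusted p = 0.000729), with naive libraries at 3726 to 4603. Scd2, a stearoyl-CoA desaturase, differed by -0.97 ± 0.15 SE (adjusted p = 0.00171). Abcg1, which exports sterol to lipoproteins, read 4330 to 5234 after crush and 1342 to 2196 with raised pressure (1.41 ± 0.26 SE, adjusted p = 0.00473). Scd1, Abca1 and Acaca, the last the carboxylase that precedes Fasn, were not called (-2.85, 0.80 and 0.53, with limma adjusted p of 0.0748, 0.11 and 0.47). In glycolysis 1 of 23 tested entries was called, Eno2, the neuronal enolase (-0.93 ± 0.22 SE, adjusted p = 0.0257).

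**Figure D2:**
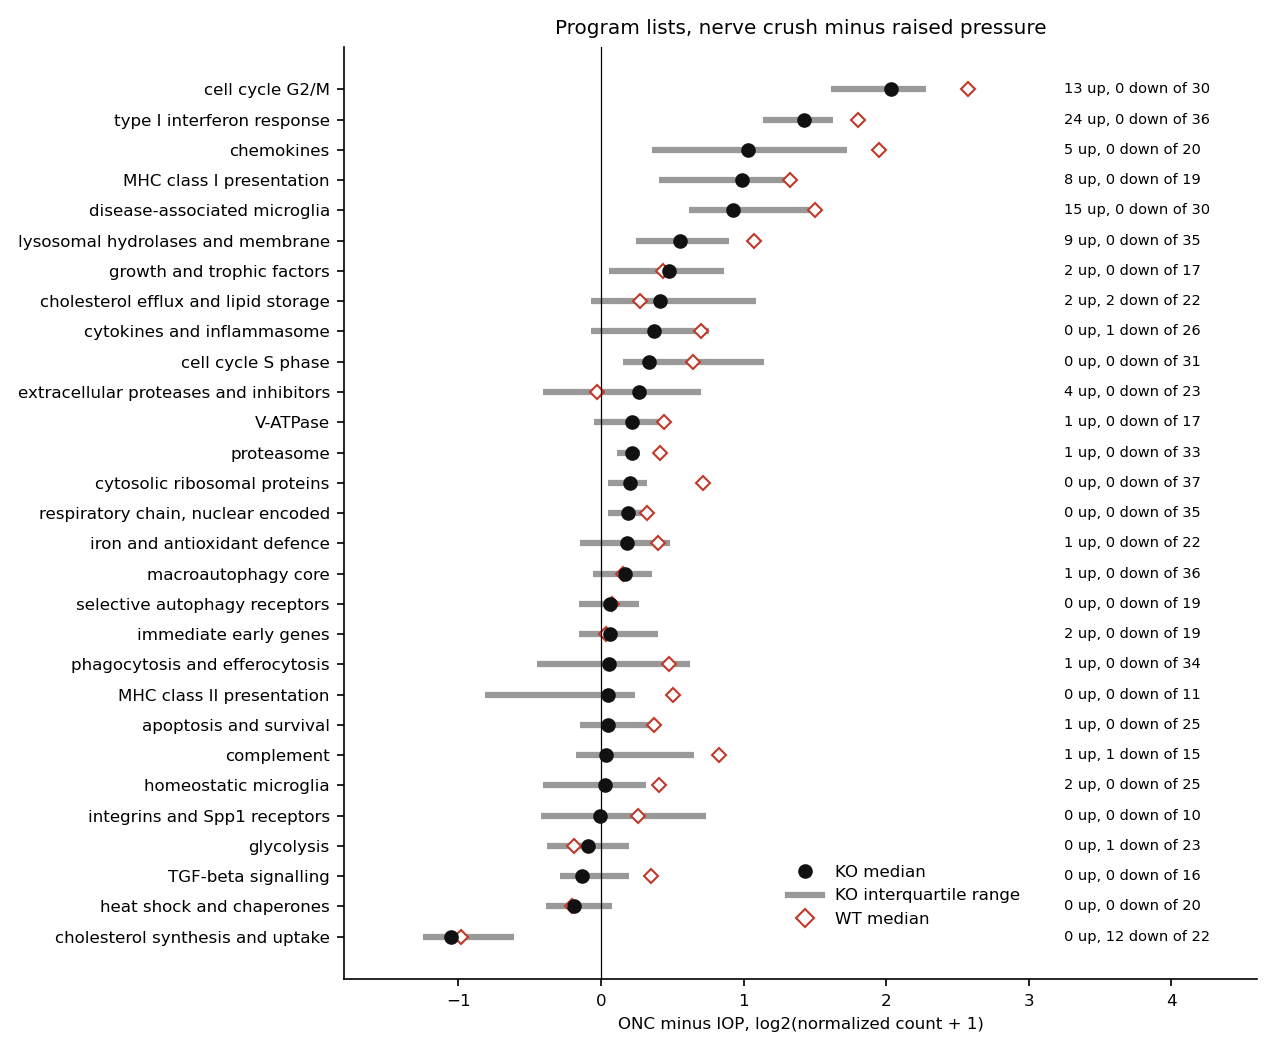
Median difference of each program list, crush minus raised pressure on log2(normalized count + 1), in KO (black dots, with a grey bar over the interquartile range of the members) and in WT (open red diamonds), with the number of members called in KO. The KO medians run from 2.03 for G2/M to -1.05 for cholesterol synthesis and uptake, and most lists sit near the all-gene median of 0.03.

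**Figure D3:**
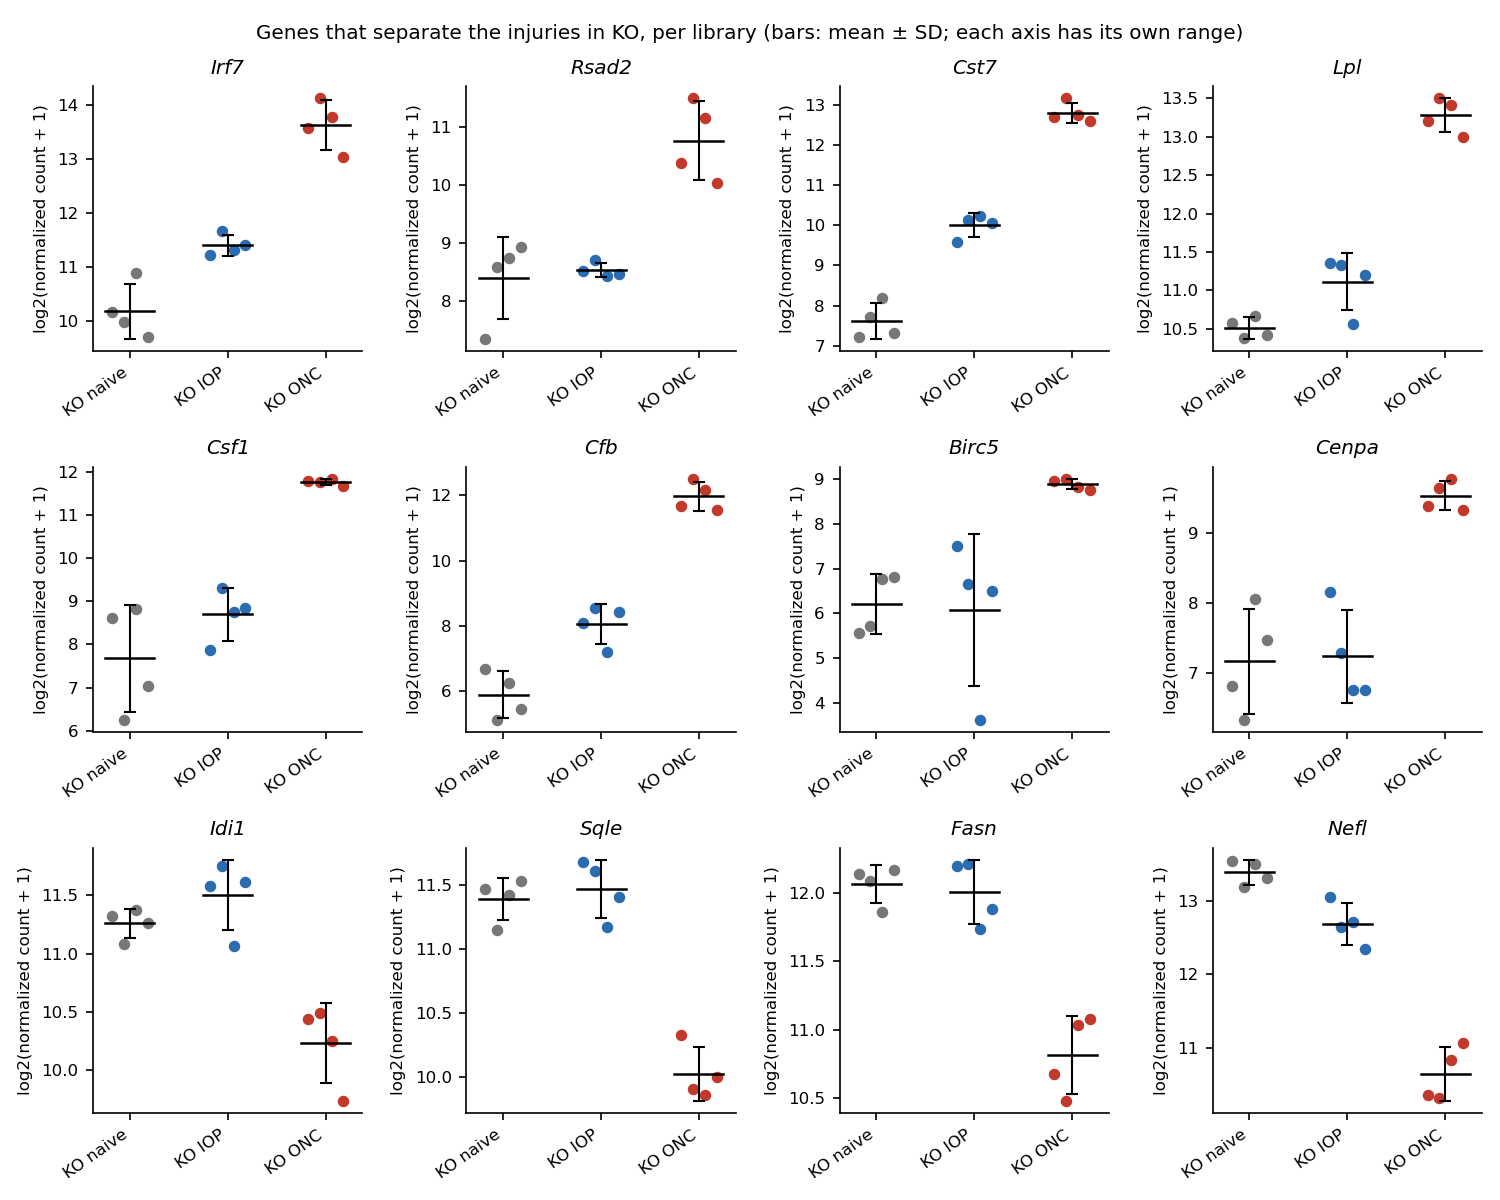
Log2(normalized count + 1) of 12 genes in the KO naive, KO IOP and KO ONC libraries, 1 point per library and black bars for the mean ± SD; each panel has its own axis range. Cst7 steps up from naive to raised pressure to crush, Rsad2 and Birc5 are high in the crush libraries and alike in the others, and Idi1, Sqle, Fasn and Nefl are lowest after crush.

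**Figure D4:**
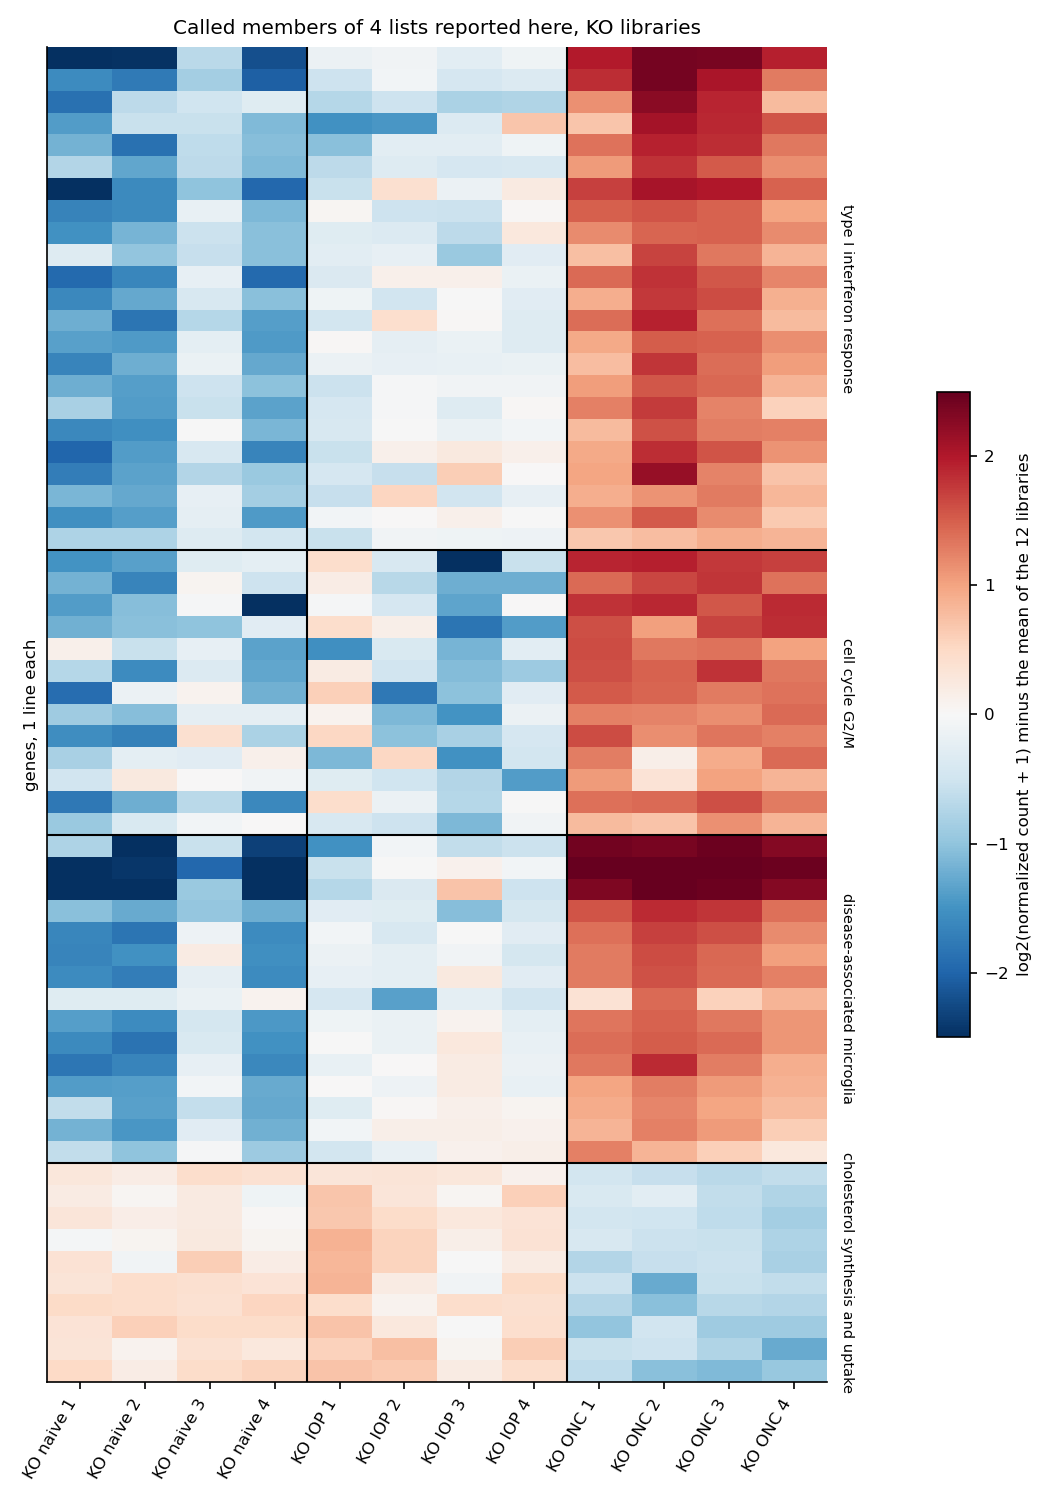
Called members of 4 lists that are reported here (1 line of cells per gene) in the 12 KO libraries (columns), coloured by log2(normalized count + 1) minus the gene's mean. The interferon, G2/M and DAM genes are mostly red in the 4 crush libraries, and the sterol genes are mostly blue there; the naive libraries are bluest for the interferon and DAM genes, KO naive 3 less so than the others.

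Beside the levels of the naive libraries stands their makeup. The pan-myeloid genes took 1.15% to 3.23% of counts in the naive KO libraries, less than in any crush library, and their part in the steps from naive to injury was not tested. Of the 250 genes called higher after crush, 169 had KO means in the order naive, raised pressure, crush, and 243 had higher means after crush than in naive libraries. Among all 15503 genes tested these numbers were 4126 and 7348. The same order held in 30 of 37 cytosolic ribosomal protein genes, of which none was called. KO naive 3 had the highest pan-myeloid share and, with 28.1 normalized counts of Ddx3y, the lowest Y chromosome level of the naive libraries. Of the 191 called lower, 2 had higher means after crush than in naive libraries, and 81 had higher means with raised pressure than in naive libraries.

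The remaining program lists gave few calls or none. No member of the heat shock (20 tested), nuclear-encoded respiratory chain (35), cytosolic ribosomal protein (37), TGF-beta signalling (16) or integrin and Spp1 receptor (10) lists was called in limma. Of these members 4, 3, 2, 1 and 4 had an unadjusted p under 0.05, edgeR called 0 of each list, and DESeq2 called 1 integrin and Spp1 receptor gene and 0 of the others. Cdkn1a was the 1 called of 25 apoptosis and survival genes, and Csf1 and Grn were the 2 called of 17 growth and trophic factors, of which 1 was called without KO IOP 2.

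By size of change, the largest rises among called protein-coding genes without overlap and with a mean of 100 or more were, after Ddx3y and Eif2s3y on the Y chromosome, Ecel1, Cx3cr1, Cfb, Arhgef39, Olfr111, Ncapg, Csf1 and Cd5. Ecel1, an endopeptidase of injured neurons, read 360, 71.8, 285 and 160 normalized counts after crush and 0, 0, 0 and 1.01 with raised pressure (adjusted p = 0.000757, with a fitted difference of 7.29 ± 1.06 SE that depends on the added 1). Olfr111, annotated as an olfactory receptor, read 181 to 230 against 7.13 to 26.1, but its adjusted p of 0.0487 passed the threshold in none of the fits that left out 1 library. Cd5, a scavenger receptor of lymphocytes, read 82.6, 112, 139 and 117 against 13.2, 17.1, 32.0 and 3.03 (3.04 ± 0.67 SE, adjusted p = 0.0162). It was the 1 called of the 5 T and NK cell markers tested, and the summed level of the 13 markers in the table's list was at most 0.0011% of counts.

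Among the largest falls were Steap4, Adgrg6, Pcdhb2, Mmp16, Bmp3, Tbx3, Nefl, Cdh20 and Rasl11b. Bmp3, a ligand of the TGF-beta family, read 338, 83.8, 87.9 and 220 after crush and 936, 823, 759 and 552 with raised pressure (-2.29 ± 0.53 SE, adjusted p = 0.0209). Tbx3, a T-box transcription factor, read 509, 177, 182 and 393 against 1712, 1233, 1130 and 1314 (-2.23 ± 0.50 SE, adjusted p = 0.0176). Mmp16, a membrane-bound metalloprotease, differed by -2.72 ± 0.69 SE, and Cdh20, a cadherin, by -2.02 ± 0.43 SE. Steap4, a metalloreductase, was at 0 in 3 crush libraries and read 43.5 in KO ONC 4, and it was called in 1 of the 8 fits that left out 1 library.

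Nefl, the neurofilament light chain of large axons, read 1309, 1277, 1828 and 2132 normalized counts after crush, 8446, 6385, 6690 and 5169 with raised pressure and 9296 to 11915 in naive libraries (-2.04 ± 0.35 SE, adjusted p = 0.00399). The summed level of the ganglion cell list, to which Nefl adds most, was 0.00642% to 0.0137% of counts after crush, 0.0250% to 0.0387% with raised pressure and 0.0577% to 0.0666% in naive libraries. Without Nefl it was 0.00236% to 0.00579% after crush, 0.00505% to 0.00693% with raised pressure and 0.0123% to 0.0188% in naive libraries, so the injuries then overlapped. Of its 10 tested genes 2 were called, Nefl and Sncg, a synuclein of ganglion cells (-1.30, adjusted p = 0.02), and the median was -1.17. With the Y chromosome term that median was 0.02. In bulk samples fewer cells of a type and less RNA per cell cannot be told apart. Amacrine and horizontal cell, cone and Muller glia lists had medians of -1.01, -0.97 and -0.33 and 1, 1 and 2 called members (Calb2; Pde6h; Aqp4 and Dkk3), all lower after crush.

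Border macrophages, which lie along vessels and membranes, are the nearest relatives in the sort. Their 10 markers took 0.0476% to 0.145% of counts after crush and 0.173% to 0.219% with raised pressure, with 9 of 10 lower after crush (median -1) and 1 called, Pf4 (-1.70, adjusted p = 0.0488). The 9 mitochondrial-genome transcripts took 1.78% to 2.54% and 3.02% to 4.01% with none called, 6 at an unadjusted p under 0.05 and 0 called by edgeR and DESeq2. The 5 tested erythrocyte genes, at 0.000131% to 0.0632% of counts with raised pressure and 0.00277% to 0.0157% after crush, had a median of 4.33 with none called and 4 at an unadjusted p under 0.05. KO IOP 1 had a mean erythrocyte level of 11.1 on the log2 scale, above every crush library (6.11 to 9.51), and the other KO IOP libraries were at 1.95 to 2.11. In edgeR and DESeq2, without KO IOP 2 and KO IOP 4, both medians were -1.37 with 0 called. The part of these levels in the differences above was not tested.

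The WT libraries share no sample with the KO libraries and gave the same directions for the main groups. The WT medians of crush minus raised pressure were 1.80 for the interferon response, 2.57 for G2/M, 1.5 for DAM, 1.32 for MHC class I, 1.07 for lysosomes and -0.98 for cholesterol synthesis and uptake, beside 1.42, 2.03, 0.93, 0.99, 0.55 and -1.05 in KO. In the WT libraries the Y chromosome genes were lower after crush in 2 of 3 libraries, the reverse of KO. Of the 250 genes called higher in KO 229 were higher in WT, and of the 191 called lower 187 were lower in WT, while 10427 (67.3%) of all tested genes had the same sign in both.

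**Figure D5:**
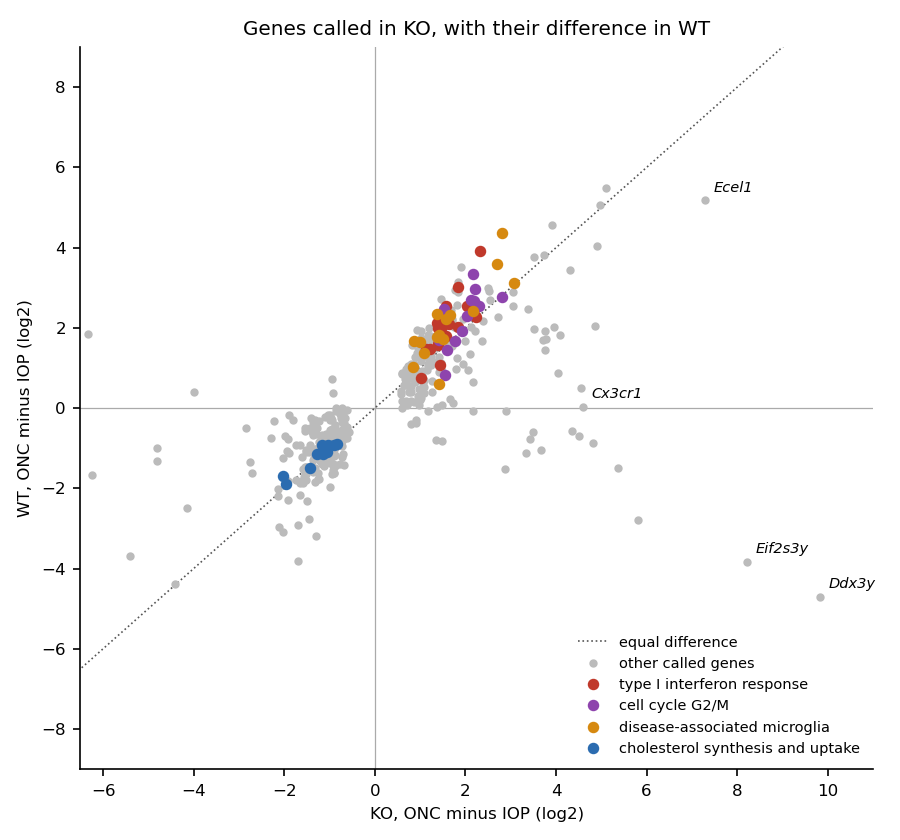
Crush minus raised pressure in KO (x axis) and in WT (y axis), both log2 differences of group means, for the 441 genes called in KO; coloured points are called members of 4 lists and the dotted line marks equal differences. The members of the 4 lists lie in the quadrants of equal sign, and Cx3cr1, Eif2s3y and Ddx3y lie away from the line.

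The genotype by injury interaction, the test of whether a difference is particular to KO, called 18 genes (0.116% of those tested). In 16 the difference, crush minus raised pressure, was higher in KO than in WT, and in 2 it was lower. This sign does not give the level in KO. No member of the interferon, G2/M, DAM, MHC class I, lysosomal or cholesterol synthesis lists was among the 18 genes in limma. Of their members 3, 1, 3, 0, 5 and 2 had an unadjusted p under 0.05, and edgeR and DESeq2 called 0 of each list. Without WT ONC 2, 2, 0, 2, 1, 2 and 0 members of these lists were called. In that limma fit 4, 4, 10, 9, 14 and 3 members had an unadjusted interaction p under 0.05, as had 4185 of the 15503 genes tested. With all libraries in the fit, 2252 of the 15503 genes tested had an unadjusted interaction p under 0.05 in limma. A p that misses the threshold does not show equal responses. The 5 largest among genes with a group mean of 100 or more were Ddx3y, Cryaa, Crybb3, Gm21985 and Pla2g2d. Cryaa and Crybb3, lens crystallins, differed by -13.2 and -9.86 in WT and by -1.08 and 0.25 in KO (interaction 12.1 ± 1.97 SE, adjusted p = 0.0116, and 10.1 ± 1.52 SE, adjusted p = 0.0052). The 17 lens markers took 0.155% to 1.14% of counts in the WT IOP libraries and at most 0.0092% in the 8 KO libraries. Pla2g2d, a secreted phospholipase, differed by -4.23 in WT and 1.43 in KO (interaction 5.66 ± 0.93 SE, adjusted p = 0.0116). The count of 18 depended on WT ONC 2, without which 1124 genes were called, on WT IOP 1 and WT IOP 4, without which it was 9 and 11, and on KO ONC 4, without which it was 9.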

How the data were processed

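Bulk RNA was sequenced from CX3CR1-GFP microglia sorted from pooled retinas. The authors quantified reads with salmon on GRCm38 and normalized them with DESeq2, and the submitters' processing notes also list STAR; which aligner made the table is not settled in the sources used here. The deposited values are normalized counts, treated here as a signal and not as raw counts. In 21 of the 23 libraries whole reads were recovered from the steps in the values (100% of values whole within 0.02 of a read), and edgeR called 52 genes on them. KO IOP 2 and KO IOP 4 were left out of the count models.

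Genes with a normalized count of 10 or more in 3 or more of the 8 libraries were fitted on log2(value + 1) with limma 3.58.1 (R 4.3.3; empirical Bayes with a mean-variance trend) over all 23 libraries in 6 groups, with Benjamini-Hochberg adjustment. Calls needed an adjusted p under 0.05 and a log2 difference over 0.58 in size. edgeR 4.0.16 and DESeq2 1.42.0 on recovered reads, other filters, pseudocounts, scalings, covariates and single libraries left out were alternatives. Scripts were tested on simulated data, where limma recovered 33% of genes changed 2-fold and 80% of those changed 4-fold. There edgeR recovered 11% and 62%, and DESeq2 31% and 80%. False calls numbered 6 in limma, 5 in edgeR and 36 in DESeq2. In the simulation limma used all 23 libraries, and edgeR and DESeq2 were again without KO IOP 2 and KO IOP 4. The changed genes were drawn only from genes above a minimum mean count. A gene that was not called may therefore still differ. p-values measure the spread between pools.

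The libraries compared and the gene lists were chosen with earlier results of these data known. Named genes were the 10 largest rises and 10 largest falls among called, non-overlapping protein-coding genes with a mean of 100 or more, up to 4 called members of each program list (or, with none called, the member with the lowest adjusted p), the checks of labels and sort by Spp1, Cx3cr1 and the marker lists, and the 5 largest called interactions. Genes outside that rule (P2ry12, Tmem119, Sqstm1, Optn, Htt, Wdfy3, Isg15, Ifit3, Hmgcs1) were chosen after their values were seen. Some genes that the rule names are not reported here.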

Additional observations from a re-analysis of the deposited data

Results flagged for a closer look

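In 6 of 156 groups of 4 libraries tested, 1 library stood far from the other 3 by Dixon's criterion, which chance meets in about 1 in 20 groups. Ecel1 read 1.01 normalized counts in KO IOP 4 and 0 in the other KO IOP libraries. Steap4 read 43.5 in KO ONC 4 and 0 in the others. Ccl3 was lowest in KO IOP 1 (276), Rpl10a, a ribosomal protein, was lowest in KO IOP 1 (2252), and Ctsd was highest in KO IOP 3 (563267). Spp1 was lowest in KO ONC 3 (15).

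For 18 genes the difference of crush and raised pressure itself differed between KO and WT in limma's interaction (log2, KO minus WT). It was 4.55 for Cx3cr1 and 14.5 for Ddx3y. The crystallin genes gave 12.1 for Cryaa, 10.1 for Crybb3, 4.77 for Cryab and 2.48 for Crym. Tmem26 gave 8.60, Pla2g2d 5.66, Tlr5 5.54, Gipc2 5.29, Lrrc2 4.38, Trim46 4.27, Lyve1 3.79, Stmn2 2.58, Rock2 1.98 and mt-Nd6 1.69. It was negative for Gm21985 (-8.39) and Tbl2 (-1.66). The KO libraries differ in sex by injury in the direction opposite to WT, the WT IOP libraries hold lens transcripts, and the part of either in these values was not tested.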

How the results depend on the processing

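The 441 calls became 756 in a fit of the compared groups alone, 29 with the Y chromosome term, 3 without the KO libraries with Spp1 above 100 normalized counts, 52 with edgeR, and 134 with limma on the libraries of the count models, an alternative chosen after seeing the data. They ranged from 131 to 445 when 1 library was left out, and other settings stayed within 1.5 times. DESeq2 called 599, of which 303 were among the 441. The 18 interaction calls became 29 with no filter, 40 with a filter over all 23 libraries, 9 after quantile normalization, 6 with the rod term, 1 with the Y chromosome term, 3 without the libraries with Spp1 above 100, 9 with edgeR and 263 with DESeq2, and ranged from 9 to 1124 when 1 library was left out. Eif2s3y reversed with the Y chromosome term (-0.77) and Spp1 without the libraries above 100 (-0.043). Crybb3, not called in KO, turned to -0.18 after quantile normalization, -2.15 without the libraries with Spp1 above 100, -0.54 on the libraries of the count models, and ranged from -0.76 to 0.79 when 1 library was left out. The cause was not tested. With a replicate block the calls were 388 (363 of the 441) and 14. Deviations of same-numbered libraries had correlations from -0.146 to 0.035, within the -0.215 to 0.176 of differently numbered ones. The labels give a shared number and nothing else, and these correlations cannot tell whether more is shared. Reads could be counted in 6 of the 8 libraries compared (25265331 to 29181636), and depth limits genes near the filter of 10 normalized counts.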
